A study of Homo sapiens with 18 samples.

Results

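Etoposide-treated and DMSO control cells were compared at the first time point of an RNA-stability series, labelled 0, with 3 libraries in each arm. These are 6 of the 18 libraries of the series, taken by their titles, and same-numbered libraries of the arms were treated as a pair. All came from hTERT RPE-1, a single telomerase-immortalised line of human retinal pigment epithelium, grown in DMEM F-12 with 10% serum, held for 48 h in 0.1% serum and labelled as cells in G0/G1. The etoposide arm (ETOP) received 50 µM etoposide for 30 min. The control arm is named DMSO in the titles only. Triptolide, which blocks the start of transcription, was used at 10 µM in the series, and the other libraries carry the labels 20 and 40, whose unit the labels do not give. Whether triptolide had been added at 0 is not stated either, so the 6 libraries are described here as labelled. The labels call the replicates independent, and say nothing of how long the DMSO cells were exposed.

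DNA topoisomerase II passes one DNA duplex through a transient break in another and then reseals it. Etoposide traps the enzyme on the broken ends, so that double-strand breaks persist, and it is known for evoking the ATM, p53 and repair responses. Breaks inside a transcribed gene can stop RNA polymerase, and the beta form of topoisomerase II, unlike the alpha form, is made in cells that are not dividing. Serum-starved cells generally make less of the immediate-early transcription factors, such as FOS and EGR1, that fresh serum induces within minutes.

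Depth was even: the 6 libraries held 8758232 to 11580219 counts, so that the 3 counts allowed by a count of 0 came to 0.259 to 0.343 CPM, the counts scaled to a library of 1e+06. One library stood apart. DMSO replicate 2 had 1.42% of its counts on genes typed antisense (95% exact binomial interval 1.41 to 1.43, counting error only), against 0.217 to 0.253% in the other 17 libraries. In it, BEST1 held 21473 counts against at most 177 in any other library, and the gene shares exon sequence with FTH1 on the opposite strand. VIM-AS1 (8436 against at most 292), TUBA1B-AS1 (6348 against at most 31) and CD44-AS1 (447 against at most 12) behaved alike. Of the 550 antisense genes tested, 251 were highest in this library, against 3213 of all 14186 genes tested. Separately, 68 tested genes had 0 counts in both replicate 3 libraries and a mean of at least 5 CPM over the other 4. That mean includes DMSO replicate 2, and 3 of the 68 genes are in the gene lists used here. The deposited columns of replicate 3 carry a suffix that the others lack, and whether their reads were counted in another way was not tested. Replicates of an arm differed by more than counting noise, so none was a duplicate of another.

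**Figure D1:**
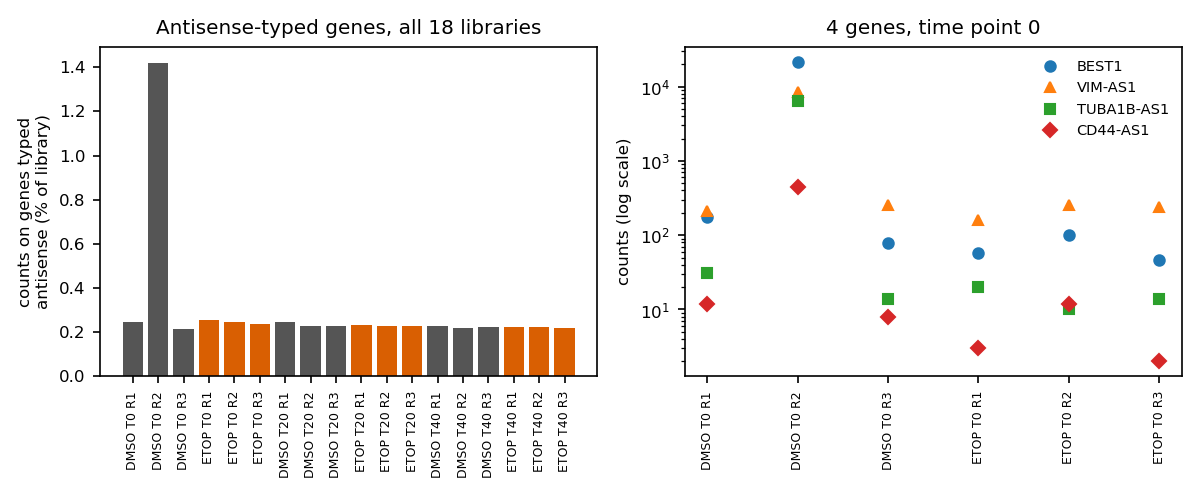
Left, the share of each library's counts on genes typed antisense, in percent (grey bars, DMSO; orange bars, etoposide); right, the counts of 4 genes in the 6 libraries of time point 0, on a log scale. DMSO replicate 2 reached 1.42%, the other 17 libraries 0.217 to 0.253%, and BEST1 held 21473 counts in it.

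The listed markers of retinal pigment epithelium were partly present. The keratins KRT8 and KRT18 and the transcription factors MITF and OTX2 were counted in all 6 libraries. RPE65, the visual-cycle isomerase, stayed at or under 0.21 CPM, TYR at or under 0.11 CPM, and DCT and TTR were at 0. The 17 retinal pigment epithelium markers summed to 1396 to 3649 CPM with DMSO and to 1033 to 1842 CPM with etoposide. Of the highest DMSO sum, 2452 CPM was BEST1 in replicate 2. In every other library KRT8 (464 to 918 CPM) and KRT18 (453 to 987 CPM) made up most of the sum. The 14 fibroblast markers summed to 21172 to 24451 CPM with DMSO and 24333 to 26117 CPM with etoposide, most of it vimentin and fibronectin. Among markers of other epithelia 6 of 13 were at 0, with sums of 11.3 to 14.6 CPM with DMSO and 9.0 to 17.5 CPM with etoposide. Blood-cell markers (10 of 17 at 0) summed to 2.10 to 2.70 and 2.33 to 3.93 CPM in the same order. The endothelial and neuronal markers, 2 of 11 at 0, summed to 78.9 to 83.0 and 82.9 to 90.1 CPM. Every level here is relative to the library's total, so fewer cells holding an RNA and less of it per cell cannot be told apart.

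The drug's target enzymes differed between the arms by less than their replicates did. TOP2A was at 412, 357 and 439 CPM in DMSO replicates 1, 2 and 3 and at 373, 379 and 421 CPM with etoposide. TOP2B was at 149, 123 and 188 CPM and at 146, 129 and 174 CPM in the same order. TOP2A thus stood above TOP2B in every library, although the labels place the cells in G0/G1. The arms overlapped for both genes, and the log2 difference, etoposide minus DMSO, was -0.04 ± 0.14 (SE) for TOP2A and -0.03 ± 0.13 for TOP2B (means 402 ± 41.7 and 391 ± 26.1 CPM, SD, for TOP2A). TOP1, the type I enzyme that etoposide does not target, differed by 0.09 ± 0.13. The sign of these 3 small differences was not stable when single libraries were left out. METTL3, the catalytic subunit of the m6A methyltransferase, was at 50.7, 54.8 and 39.2 CPM and at 51.6, 54.4 and 41.2 CPM, a difference of 0.03 ± 0.11.

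No gene passed the test. Across 14186 genes, edgeR's quasi-likelihood test with the replicate number as a block called 0 (0%) at a Benjamini-Hochberg adjusted p under 0.05. At an unadjusted p under 0.05 it gave 882 genes (6.22%), of which 426 stood higher with etoposide (3%) and 456 lower (3.21%). The lowest adjusted p was 0.301. The median standard error was 0.15 on the log2 scale, and 0.13 over the 10868 genes with a mean of at least 5 CPM, of which 10690 (98.4%) lay within 0.5 log2 of no difference. DESeq2 called 12 genes (0.0846%): MIRLET7IHG and TTLL3 higher, and 10 lower, each of which was highest in DMSO replicate 2. Limma-voom called 0. Fitted on the 6 libraries alone, edgeR called 5 (0.0377%): XIST, SRRM2 and CAPRIN2 higher, CCN1 and CD44-AS1 lower. The genes described next are therefore the first of a ranking, the 10 with the smallest unadjusted p in each direction among genes with a mean of at least 5 CPM, and none of them is a call. In each of these 20 genes all 3 pairs had the same sign, where 16% of all genes were higher and 18.1% lower in all 3 pairs. The ranking used these libraries and favours such genes, so nothing is read from that count.

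The highest-ranked RNA was the host transcript of a microRNA. MIRLET7IHG (ENSG00000257354, a lincRNA on chromosome 12, 62602752 to 62622213, plus strand) stood at 23.0, 24.1 and 23.2 CPM in DMSO replicates 1, 2 and 3 and at 36.8, 34.8 and 37.8 CPM with etoposide. All 3 etoposide libraries were above all 3 DMSO libraries, and neither arm spread by more than a small part of the gap. The log2 difference was 0.64 ± 0.12 (SE; means 23.5 ± 0.577 and 36.5 ± 1.49 CPM, SD), with an unadjusted p of 2.12e-05 and an edgeR adjusted p of 0.301. Over 24 other settings the difference ran from 0.56 to 0.75 and the adjusted p from 2.49e-06 to just under 1. It passed in 4 of them, 2 of those added after the data had been seen. The transcript also shares exon sequence with LINC01465 on the opposite strand. Its span holds the hairpin of let-7i (62603686 to 62603769), which lies outside the exons of its 1 GENCODE 29 transcript. let-7 microRNAs repress growth-promoting mRNAs, and poly(A)-selected libraries measure the host RNA and not the mature strands. The mature strands, from RefSeq on GRCh38.p14 at chr12:62603691-62603712 and chr12:62603747-62603768 of the plus strand, are shown with the seed, bases 2 to 8, in capitals to identify the product that this locus encodes.
hsa-let-7i-5p: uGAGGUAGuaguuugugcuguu
hsa-let-7i-3p: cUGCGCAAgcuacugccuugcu

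The other RNAs at the head of the ranking were mostly low-abundance transcripts of varied function. TTLL3, an enzyme that adds glycine to tubulin, was at 31.6, 32.6 and 18.8 CPM with DMSO and at 45.8, 48.9 and 39.9 CPM with etoposide. CSAD, a decarboxylase of taurine synthesis, was at 24.6, 25.0 and 19.4 CPM and at 33.0, 33.2 and 36.6 CPM. BORCS5, a subunit of the complex that positions lysosomes, was at 12, 14.7 and 13.3 CPM and at 17.9, 22.3 and 18.2 CPM. The arms did not overlap for any of these 3 genes. Their log2 differences were 0.71 ± 0.16 for TTLL3, 0.57 ± 0.14 for CSAD and 0.54 ± 0.14 for BORCS5, each with an edgeR adjusted p of 0.755. TTLL3 exons are shared with the read-through gene ARPC4-TTLL3 on the same strand and CSAD exons with ZNF740 on the other, so counts of both are uncertain.

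The remaining higher RNAs were LINC00641, a long noncoding RNA (0.57), SEC31B, a coat protein of secretory vesicles (0.50), GATAD1, a zinc finger protein found on chromatin (0.38), and ZNF224, a KRAB zinc finger repressor (0.61). ENSG00000261786 (0.74) and ENSG00000264112 (0.65) completed the 10. In 9 of these 10 the arms did not overlap, against 3.15% of all tested genes, but the ranking used these libraries and nothing is read from that count. SEC31B was the exception: etoposide replicate 3, at 48.5 CPM, was under DMSO replicate 2 at 57.4 CPM. Exons of 8 of the 10 overlap another gene. BORCS5 and LINC00641 do not.

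**Figure D2:**
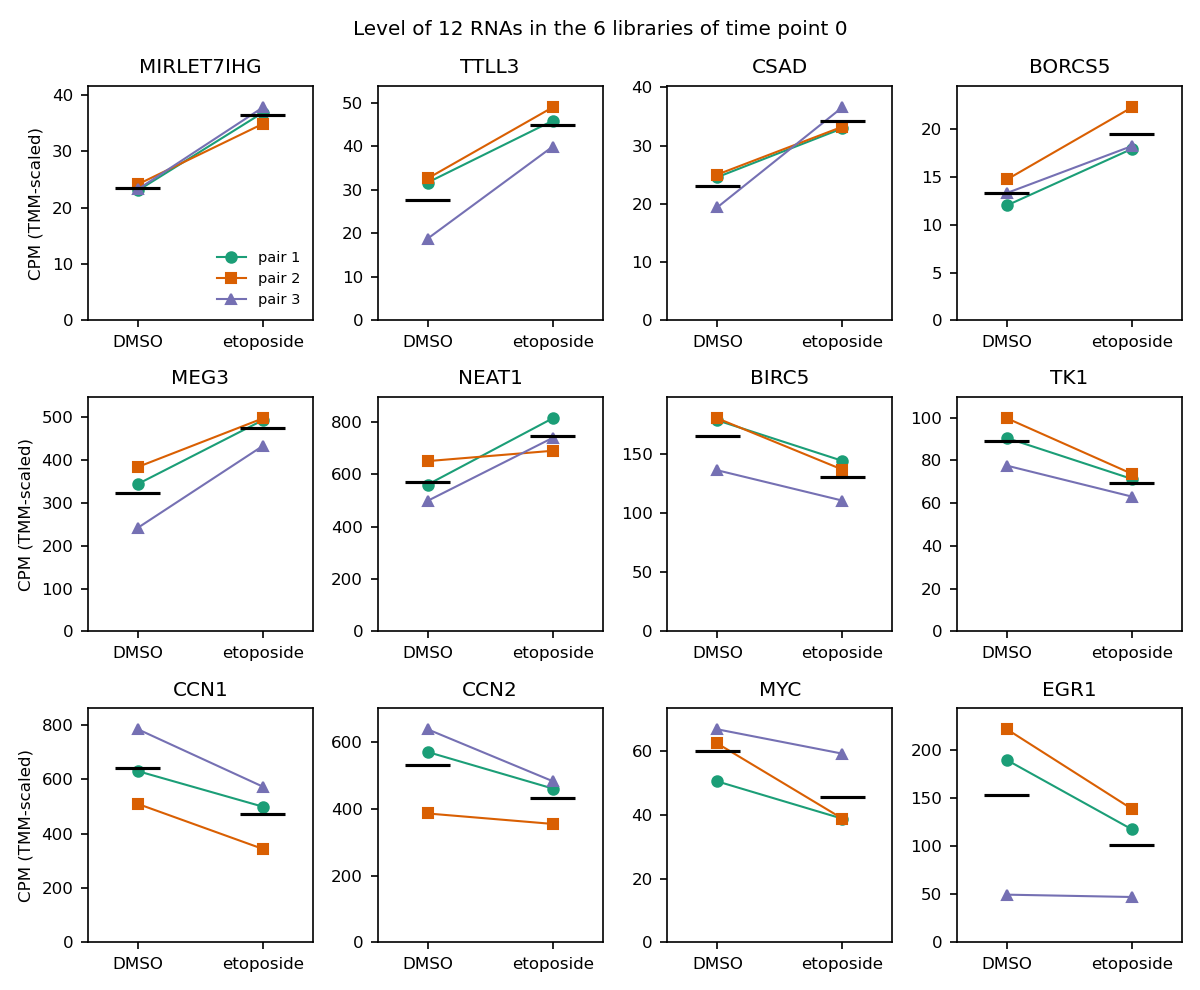
TMM-scaled CPM of 12 RNAs in the 6 libraries of time point 0. Each line joins the DMSO and etoposide library of 1 replicate number, short black bars are arm means, and each vertical axis starts at 0. MIRLET7IHG is higher in every etoposide library (34.8 to 37.8 against 23.0 to 24.1 CPM), and CCN1 is lower in each pair while its arms overlap.

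BIRC5, CCN1 and MYC were the lower RNAs with the best-known roles in growing cells. BIRC5, the mitotic protein survivin, was at 178, 179.8 and 136 CPM with DMSO and at 144, 137 and 110.4 CPM with etoposide. CCN1, a secreted matricellular protein also known as CYR61 (chromosome 1, 85580761 to 85583962, plus strand), was at 629.6, 509 and 784 CPM and at 499, 344 and 572 CPM. MYC, the growth-promoting transcription factor, was at 50.5, 62.4 and 66.9 CPM and at 38.8, 38.9 and 59.2 CPM. Every pair went down for these 3 genes, while their arms overlapped because the replicates of an arm lay far apart. The log2 difference was -0.34 ± 0.09 for BIRC5, -0.45 ± 0.12 for CCN1 and -0.42 ± 0.13 for MYC, each with an edgeR adjusted p of 0.755. Without DMSO replicate 2 these became -0.31, -0.42 and -0.25.

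Arms did not overlap for 4 of the 10 lower RNAs (all genes: 3.06%), among them ADISSP, ESM1 and SLC19A1. The ranking used these libraries, so nothing is read from this count either. ADISSP, an adipose-secreted signalling protein, was at 60.9, 66.1 and 61.5 CPM with DMSO and at 46.2, 49.8 and 46.9 CPM with etoposide, a difference of -0.40. ESM1, a secreted proteoglycan, was at 6.54, 7.32 and 5.87 CPM and at 2.83, 4.32 and 4.16 CPM, a difference of -0.82. Both differences were as wide as several of their standard errors (0.12 and 0.23) and missed the threshold after adjustment. RPL39L, a ribosomal protein paralogue, differed by -0.45, and its arms overlapped only at 26.1 CPM with DMSO and 26.9 CPM with etoposide. COA3, an assembly factor of cytochrome c oxidase (-0.45), and SLC19A1, the reduced folate carrier (-0.59), share exons with a gene on the opposite strand. SLC19A1 moved to -0.32 without DMSO replicate 2, where it was at 35.8 CPM against 16.6 to 26.2 CPM elsewhere.

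That library was the highest of the 6 for 7 of the 10 lower RNAs, and for 1289 (50.2%) of all 2569 genes that were lower in all 3 pairs. For ENSG00000258232, which lies opposite TUBA1C, it decided the value: the log2 difference went from -6.60 to -1.88 without it. ENSG00000283103 went from -0.91 to -0.47. Among the 10, BIRC5 (-0.34 to -0.31), ADISSP (-0.40 to -0.35) and ESM1 (-0.82 to -0.94) moved little. Outside the 10, BEST1 went from -5.60 to -1.32 and PMEL, a melanosome protein, from -1.15 to -0.01.

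Of the gene lists, the one for cell proliferation leaned furthest down among those with more than 8 tested members. All 35 of its members were tested, 0 passed, 2 stood above 0 (all tested genes: 48.8% above 0), and the median log2 difference was -0.17, against -0.00 over all genes. It was -0.17, -0.12 and -0.14 in pairs 1, 2 and 3. In all 3 pairs 22 of 35 members were lower, where 18.1% of all genes were, and 8 had an unadjusted p under 0.05. The summed level went from 5045 ± 216 to 4624 ± 99.3 CPM (SD, n = 3). Without DMSO replicate 2 the median was -0.20.

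By smallest p the first member of the list was BIRC5, described above. The next 3, named by the same rule, also stood further from 0 than the list's median. TK1, thymidine kinase of the DNA precursor pathway, was at 90.5, 99.7 and 77.5 CPM with DMSO and at 71.3, 73.7 and 63.0 CPM with etoposide. CCNB1, the mitotic cyclin B1, was at 151, 149 and 83.6 CPM and at 121, 121 and 70.5 CPM. CDC20, an activator of the anaphase-promoting complex, was at 139.6, 148 and 99.3 CPM and at 124, 123 and 76.1 CPM. Of these 3 only TK1 had all etoposide libraries under all DMSO libraries, as had 4 of the list's 35 members (all genes: 3.06%). Replicate 3 was low in both arms for all 3 genes. The log2 differences were -0.36 ± 0.12, -0.29 ± 0.10 and -0.27 ± 0.10 (SE), and none passed the edgeR test.

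Genes of the ribosome and of basic metabolism leaned the same way by less. Of 86 ribosomal protein genes 82 were tested, 1 stood above 0, 50 were lower in all 3 pairs, 0 passed, and the median was -0.11. RPS19, a protein of the small subunit, was at 759.7, 874 and 601 CPM with DMSO and at 647, 749 and 478 CPM with etoposide, lower in each pair by 0.22 to 0.33 log2 (-0.23, -0.22 and -0.33) with overlapping arms. Of the 31 housekeeping genes 3 stood above 0, with a median of -0.08, and 18 were lower in all 3 pairs. ENO1, the glycolytic enzyme enolase, differed by -0.16 and beta-actin (ACTB) by -0.16. Heat-shock genes had 4 of 23 tested members above 0 and a median of -0.06, with HSPE1, the mitochondrial chaperonin 10, at -0.36. These directions depend on the scaling. When libraries were scaled on housekeeping and ribosomal protein genes only, the median of all genes moved up by 0.11. The heat-shock median became 0.06 and the proliferation median -0.05 with 12 of 35 above 0. The ribosomal median became -0.00 with 41 of 82 above 0, and the housekeeping median 0.03. That scaling was computed on these same genes and sets both lists near 0, so nothing is read from those medians. Relative to the all-gene median, the proliferation genes stood at -0.16 and the ribosomal genes at -0.11 under either scaling. Under the second scaling the medians of the plotted lists were above 0, except those of proliferation and ribosomal genes. Among groups not plotted, histone genes stood at -0.05 and antisense RNAs at -0.02.

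**Figure D3:**
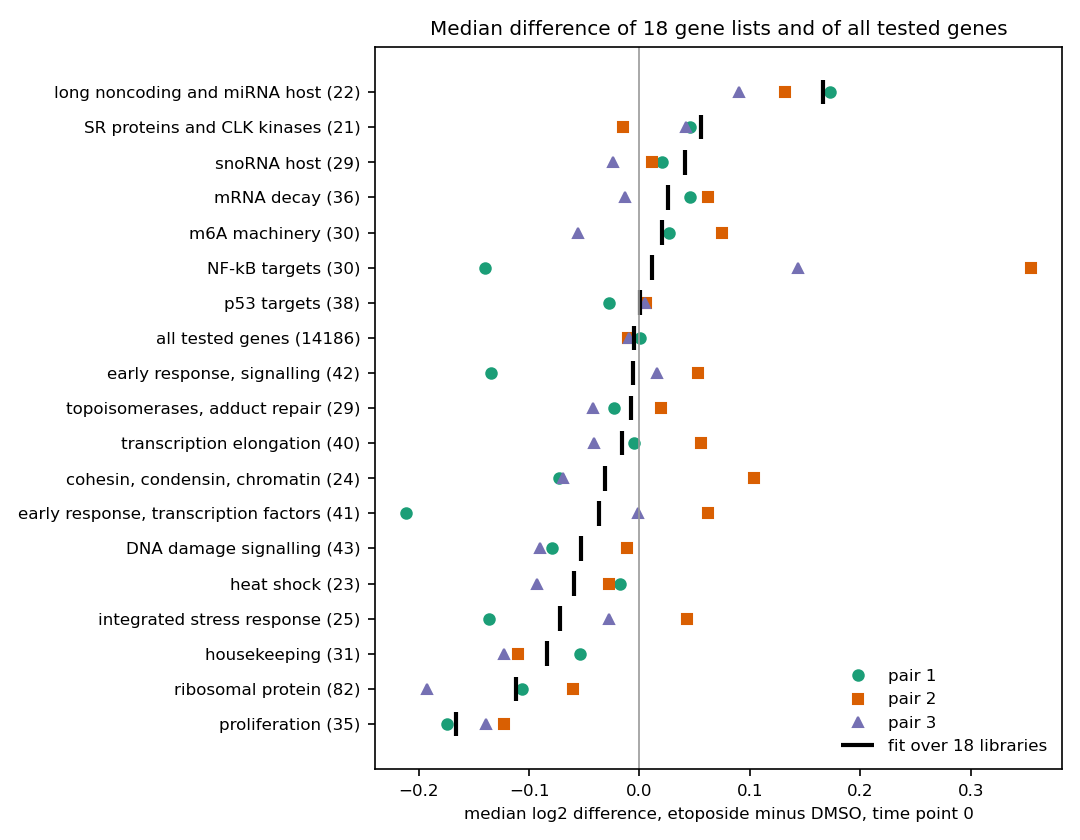
Median log2 difference, etoposide minus DMSO, of 18 gene lists and of all tested genes at time point 0, with the number of tested members in brackets. Coloured symbols are the 3 pairs and black bars the fit. Proliferation (-0.17) and ribosomal protein genes (-0.11) lie left of 0 in all 3 pairs, and the long noncoding list (0.17) lies right of it. When scaled on housekeeping and ribosomal genes the ribosomal median was -0.00, which that scaling fixes near 0 in advance.

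The list of long noncoding and microRNA host RNAs leaned upward. Of 24 listed long noncoding and microRNA host RNAs 22 were tested, 17 stood above 0, 0 passed, and the median was 0.17, with 0.17, 0.13 and 0.09 in pairs 1, 2 and 3. In all 3 pairs 8 were higher (all genes: 16%), and 2 were lower. At an unadjusted edgeR p under 0.05, 3 stood higher and 2 lower (all genes: 3% and 3.21%), and the members ran from -0.60 to 0.60. Their summed level went from 1970 ± 117 to 2371 ± 235 CPM (SD, n = 3). NEAT1, the scaffold RNA of paraspeckles, was at 560.2, 649.8 and 498 CPM with DMSO and at 813, 689 and 739 CPM with etoposide. MEG3, an imprinted long noncoding RNA, was at 344, 384 and 242 CPM and at 493, 497 and 433 CPM. For both, every etoposide library was above every DMSO library, as for 3 members of the list in all (all genes: 3.15%). NEAT1 and MEG3 were named by smallest p, so nothing is read from that. The log2 differences were 0.38 ± 0.17 for NEAT1 and 0.56 ± 0.19 for MEG3 (edgeR adjusted p 0.796 and 0.755), and 0.58 and 0.72 without DMSO replicate 2. TUG1 stood at 169, 138 and 189 CPM and at 199, 171 and 223 CPM (0.26), higher in each pair with overlapping arms, while CYTOR, a cytoplasmic member, stood lower (-0.31). Small RNA genes annotated inside NEAT1, MEG3 and TUG1 share their exons, so these counts are uncertain.

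The snoRNA host genes were mixed. Of 33 listed 29 were tested, 17 stood above 0, and the median was 0.04. SNHG1 was at 118, 123 and 95.9 CPM with DMSO and at 141, 155 and 131 CPM with etoposide (0.35 ± 0.11). SNHG16 was at 86.0, 86.1 and 74.5 CPM and at 70.1, 68.7 and 58.1 CPM (-0.33 ± 0.14). The arms did not overlap for either gene, and they moved in opposite directions without passing the test. In this list the arms did not overlap for 2 higher and 1 lower member (all genes: 3.15% and 3.06%). SNHG1 and SNHG16 were named by smallest p, so nothing is read from that. By annotated type, 398 lincRNAs had a median of 0.08 (239 above 0) and 50 sense-intronic RNAs one of 0.23 (34 above 0), which became 0.13 and 0.27 without DMSO replicate 2. The 550 antisense RNAs had a median of -0.13 (pairs 0.01, -0.39 and 0.11), which became 0.09 with 313 above 0 without that library, so its direction rested on it.

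The serum-response genes were mixed. Of 41 early-response transcription factors all were tested, 16 stood above 0, 0 passed, 7 stood lower and 1 higher at an unadjusted p under 0.05, and the median was -0.04. The pairs disagreed, at -0.21, 0.06 and -0.00. EGR1, a zinc finger factor induced by serum, was at 189.7, 222 and 49.7 CPM with DMSO and at 118, 139 and 47.3 CPM with etoposide. JUN, a subunit of AP-1, was at 237, 282 and 138 CPM and at 145, 264 and 119 CPM. FOS, its partner, was at 41.1, 27.7 and 6.29 CPM and at 26.6, 40.3 and 5.69 CPM. All 3 were thus counted well above the floor in these starved cells. EGR1 and JUN were lower in each pair and FOS was not, and replicate 3 was the lowest of its arm for all 3 genes. The log2 differences were -0.56 ± 0.35 for EGR1, -0.33 ± 0.13 for JUN and -0.09 ± 0.33 for FOS. Without DMSO replicate 2, EGR1 became -0.33 and FOS -0.27. KLF2 (31.1, 41.3 and 52.5 CPM against 26.3, 24.3 and 44.0 CPM) was lower in each pair as well, at -0.42 ± 0.18.

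Of 46 early-response signalling and feedback genes 42 were tested, 20 stood above 0, and the median was -0.01. CCN2, the matricellular relative of CCN1, was at 569.5, 386 and 637 CPM with DMSO and at 460.2, 354 and 482 CPM with etoposide, a difference of -0.28 ± 0.09, and it shares exon sequence with AL133346.1 on the opposite strand. RHOB, a small GTPase, stood at -0.28. In the other direction, BTG2, an antiproliferative gene and p53 target, was at 4.36, 4.0 and 4.27 CPM and at 6.23, 10.9 and 5.18 CPM (0.75 ± 0.32, edgeR adjusted p 0.795), and TOB1, of the same family, was at 24.0, 26.2 and 29.5 CPM and at 35.1, 37.4 and 30.2 CPM (0.36). The arms did not overlap for BTG2 or TOB1, and both narrowed to small gaps in pair 3. In this list the arms did not overlap for 3 higher and 1 lower member (all genes: 3.15% and 3.06%). BTG2 and TOB1 were named by smallest p, so nothing is read from that. BTG2 became 0.49 without DMSO replicate 2.

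The promoters of CCN2 and EGR1 were taken from RefSeq (GRCh38.p14), as the 250 bases before the start. CCN2 (chr6:131951373-131951622, minus strand) is shown because CCN2 and CCN1 stood lower together in all 3 pairs. Its capitals mark GGAATG, the core recognised by TEAD factors, at 169 to 164, 104 to 99 and 95 to 90 bases before the start. EGR1 (chr5:138465229-138465478, plus strand) is shown as a serum-response gene that stood lower in all 3 pairs. Its capitals mark the CArG box, bound by serum response factor, at 105 to 96 and 83 to 74 bases before the start. On either strand of the same window, GGAATG was present in 11.9% and the CArG box in 1.16% of 35116 promoters, and neither match is evidence of binding in these cells.
CCN2: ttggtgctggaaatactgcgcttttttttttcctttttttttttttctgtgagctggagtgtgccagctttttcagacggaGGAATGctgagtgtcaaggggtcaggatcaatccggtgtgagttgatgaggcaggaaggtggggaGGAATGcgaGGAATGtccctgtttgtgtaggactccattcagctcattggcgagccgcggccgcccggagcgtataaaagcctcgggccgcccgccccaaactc
EGR1: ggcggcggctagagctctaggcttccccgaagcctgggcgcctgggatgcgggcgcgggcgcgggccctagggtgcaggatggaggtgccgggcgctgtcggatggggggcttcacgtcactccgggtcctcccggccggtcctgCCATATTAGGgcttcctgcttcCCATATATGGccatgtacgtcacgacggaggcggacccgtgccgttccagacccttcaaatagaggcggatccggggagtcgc

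The p53 target genes were evenly split. Of 39 p53 target genes 38 were tested, 19 stood above 0 and 19 under, and the median was 0.00. CDKN1A, the p21 cell-cycle inhibitor, was at 218, 266 and 186 CPM with DMSO and at 192, 269 and 166 CPM with etoposide. MDM2, the ubiquitin ligase that limits p53, was at 80.6, 79.6 and 136 CPM and at 82.4, 76.4 and 114 CPM. BAX, a pro-apoptotic channel protein, was at 100.3, 112 and 83.2 CPM and at 83.6, 93.1 and 70.1 CPM. The arms overlapped for all 3, at log2 differences of -0.11 ± 0.10, -0.10 ± 0.14 and -0.26 ± 0.10. TP53INP1, a stress-induced p53 target, stood higher in each pair (0.41 ± 0.13).

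Among 43 tested genes of damage signalling (44 listed) 18 stood above 0, with a median of -0.05. In all 3 pairs 15 were lower and 5 higher (all genes: 18.1% and 16%), and without DMSO replicate 2 the median was -0.08 with 11 above 0. MDM4, a p53 inhibitor, was at 21.1, 19.3 and 27.1 CPM with DMSO and at 30.9, 26.2 and 32.1 CPM with etoposide (0.41). PALB2, the partner of BRCA2, differed by 0.29, MAD2L2, of the shieldin complex, by -0.33, and RAD1, of the checkpoint clamp, by -0.30. The 29 tested topoisomerase and adduct-repair genes (30 listed) had 11 above 0 and a median of -0.01 (-0.08 without DMSO replicate 2), and ran from -0.25 for LIG4, the ligase of end joining, to 0.18 for PIAS1, a SUMO ligase. The 24 chromatin partners of topoisomerase II had 11 above 0 and a median of -0.03. Without DMSO replicate 2 that median was -0.09 with 3 above 0, and SMC3, a cohesin subunit, went from -0.23 to -0.29.

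Genes of transcription elongation lay near 0 as a list. Of 42 listed 40 were tested, 17 stood above 0, the median was -0.02, and the arms did not overlap for 1 higher and 3 lower members (all genes: 3.15% and 3.06%). POLR2A, the catalytic subunit of RNA polymerase II, was at 212, 198 and 186 CPM with DMSO and at 261, 302 and 243 CPM with etoposide. CCNT2, a cyclin of the elongation factor P-TEFb, was at 22.7, 22.5 and 36.8 CPM and at 33.4, 33.2 and 44.7 CPM. Every etoposide library was above every DMSO library for POLR2A and not for CCNT2. The log2 differences were 0.43 ± 0.16 and 0.46 ± 0.15, and -0.52 for HEXIM2, which holds P-TEFb inactive. Outside the list, SRRM2, a large protein of nuclear speckles, was at 677, 628 and 595 CPM and at 834, 994 and 902 CPM (0.52 ± 0.22), and CAPRIN2, an RNA-binding protein, was at 102, 99.7 and 91.7 CPM and at 133, 149 and 133 CPM (0.49 ± 0.15). The arms did not overlap for either, and both passed in the edgeR fit on the 6 libraries alone. SRRM2 shares exons with ELOB and SRRM2-AS1 on the opposite strand. SRRM2 and CAPRIN2 were named for that call, after their values were seen.

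RNA-processing lists lay near 0. The 21 SR protein and CLK kinase genes had 14 above 0 and a median of 0.06, with SRSF5, a splicing factor, at 0.16. The 36 mRNA decay genes had 26 above 0 and a median of 0.03, or 18 above 0 and a median of 0.01 without DMSO replicate 2. They ran from EXOSC3, an exosome subunit, at -0.35 (-0.18 without that library) to XRN1, the 5′ to 3′ exonuclease, at 0.32. Of the 30 m6A genes 18 stood above 0, with a median of 0.02, and without DMSO replicate 2 the direction turned, to 14 above 0 and a median of -0.01. IGF2BP3, an m6A reader, was at 224, 246 and 215 CPM with DMSO and at 269, 312 and 249.9 CPM with etoposide (0.27), and METTL16, a second m6A writer, was at 27.4, 22.1 and 29 CPM and at 33.4, 31.9 and 32.2 CPM (0.31). The arms did not overlap for IGF2BP3 and METTL16, the 2 higher members of which that held (all genes: 3.15%). Both were named by smallest p, so nothing is read from that. METTL16 became 0.20 without DMSO replicate 2. METTL14, the partner of METTL3, stood at -0.09 (-0.17 without that library), TRMT112, a methyltransferase activator, at -0.24 and ZCCHC4, which modifies ribosomal RNA, at 0.34 (0.20 without it).

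Other stress lists were equally mixed. The 30 tested NF-kB targets (32 listed) had 15 above 0, a median of 0.01 and pairs at -0.14, 0.35 and 0.14, with TRAF1, a signalling adaptor, at -0.65 and NFKBIZ, a nuclear IκB protein, at 0.27. The 25 genes of the integrated stress response had 9 above 0 and a median of -0.07, with PHGDH, of serine synthesis, at -0.23, SLC7A11, the cystine transporter, at 0.28 (0.12 without DMSO replicate 2) and DDIT4, an mTORC1 inhibitor, at 0.27. Only 8 of 72 replication-dependent histone genes were tested, most of these RNAs having no poly(A) tail, and their median was -0.16 with 3 above 0.

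Gene length moved with the difference. The classes of exonic length were added after the data had been seen, and those of genomic span were planned. Protein-coding genes with an exonic length under 1.5 kb had a median log2 difference of -0.14 (366 genes, 18.9% above 0). The medians of the classes from 1.5 to 3, 3 to 5 and 5 to 8 kb were -0.10, -0.03 and 0.02, and that of genes over 8 kb was 0.07 (2796 genes, 70.2% above 0). Pair 1 ran from -0.07 to 0.03, pair 2 from -0.17 to 0.17 and pair 3 from -0.17 to 0.02. Without DMSO replicate 2 the outer classes were at -0.12 and 0.02. By genomic span, the median ran from -0.08 for the 2159 genes under 10 kb to 0.10 for the 487 genes over 300 kb, and from -0.04 to 0.02 without DMSO replicate 2. That range was widest in pair 2, at -0.12 to 0.26. At time 20 the pairs went in opposite directions, from 0.22 to -0.13 by exonic length in pair 1 and from -0.34 to 0.26 in pair 2. The tested members of the ribosomal list had a median exonic length of 3.06 kb, the proliferation list 3.96 kb, all genes 4.80 kb and the long noncoding list 9.49 kb. The part of length in the lists' medians was not tested.

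**Figure D4:**
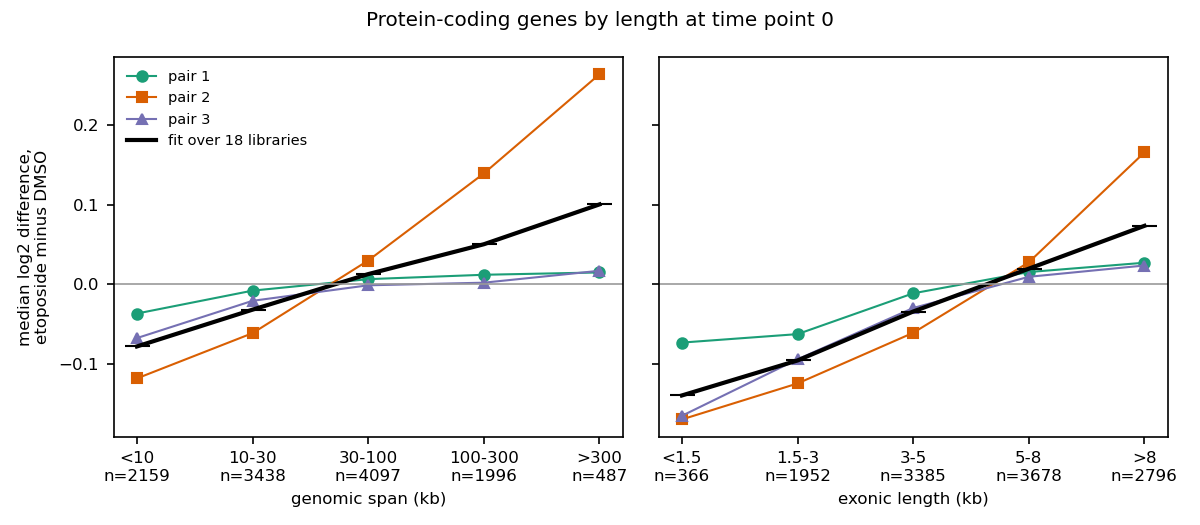
Median log2 difference, etoposide minus DMSO, of protein-coding genes by class of genomic span (left) and exonic length (right) in kb, with the number of genes under each class. Coloured lines are the 3 pairs and the black line the fit. By exonic length the fit runs from -0.14 to 0.07, and by span pair 2 runs from -0.12 to 0.26, beyond both other pairs.

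The later time points use other libraries of a series with triptolide, which blocks the start of transcription. They are therefore not repeats of the contrast at 0, and the median gaps of the ranked RNAs were narrower there. MIRLET7IHG differed by 0.00 at 20 and by -0.08 at 40. The change of its difference from time 0 was -0.63 at 20 (unadjusted p 0.000954) and -0.71 at 40 (unadjusted p 0.000301), and edgeR called 0 (0%) genes for either change at an adjusted p under 0.05, with 335 (2.36%) and 485 (3.42%) at an unadjusted p under 0.05. Over the 10 higher RNAs the median was 0.59 at 0, 0.08 at 20 and 0.12 at 40. Over the 10 lower RNAs it was -0.45, -0.10 and -0.01. At 20, 8 of the 10 higher and 9 of the 10 lower RNAs kept their sign, and at 40 it was 8 and 5. A narrowing is partly fixed by ranking on time 0. TTLL3 differed by 0.08 at 20 and by 0.33 at 40, where its pairs stood at 0.81, 0.17 and 0.04, and CCN1 and MYC stood at -0.04 and -0.14 at 20 and at 0.21 and 0.20 at 40.

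Over all genes at an unadjusted p under 0.05 at 0, 283 of the 426 higher ones (66.4%) were above 0 at 20, where 60.6% of all genes above 0 at time 0 were. At 40 it was 266 (62.4%, all 52.0%). Of the 456 lower ones, 324 (71.1%, all 59.4%) were under 0 at 20 and 214 (46.9%, all 54.1%) at 40. The edgeR test called 0 genes (0%) at 20, with 355 (2.5%) at an unadjusted p under 0.05, and 1 (0.00705%) at 40, with 498 (3.51%). That gene was BTG2, at 1.4 at 20 and 3.37 at 40 (adjusted p 0.0029, from 0.498 ± 0.35 to 5.37 ± 2.82 CPM), the same direction as its gap at time 0. Its DMSO level at 40 lay near the 3-count floor, which was 0.263 to 0.315 CPM in those DMSO libraries. BTG2 was not called at 40 without the replicate block or with voom, and DESeq2 called 4 genes there (0.0282%). The proliferation median, -0.17 at 0, was 0.04 at 20 and -0.07 at 40, and the early-response transcription factors went from -0.04 to -0.07 and 0.28.

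**Figure D5:**
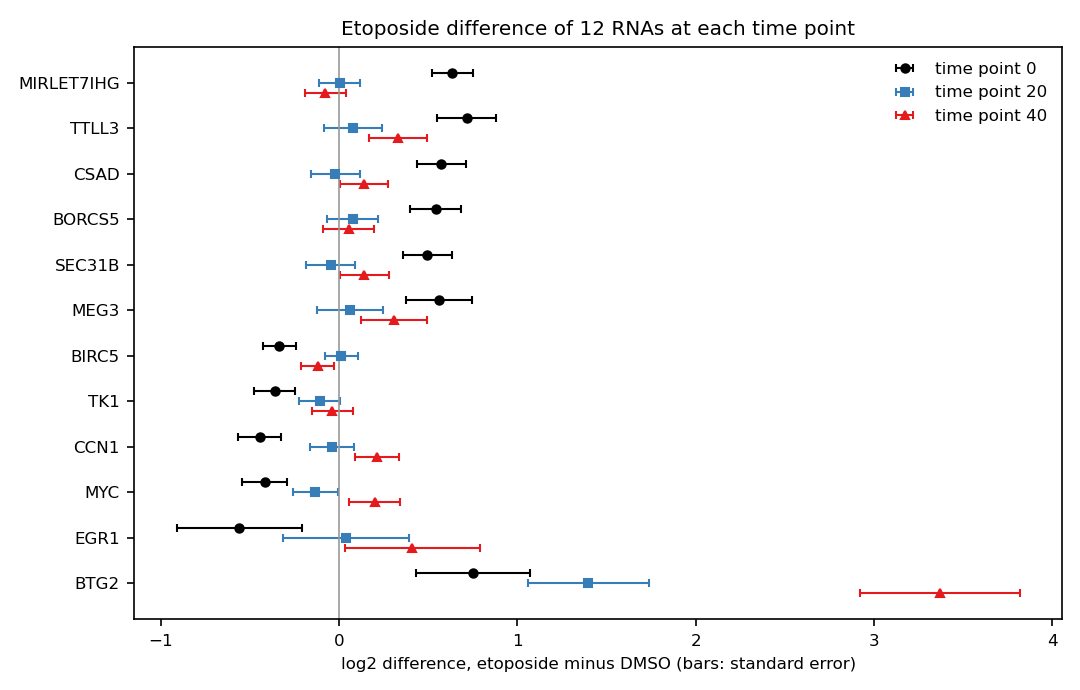
Log2 difference, etoposide minus DMSO, of 12 RNAs at time points 0 (black), 20 (blue) and 40 (red), with standard errors as bars. MIRLET7IHG is at 0.64, 0.00 and -0.08, and BTG2 at 0.75, 1.4 and 3.37.

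Leaving out DMSO replicate 2 from the fit of all libraries still gave 0 calls. The median of the long noncoding list became 0.19, that of the ribosomal genes -0.13 and that of the housekeeping genes -0.10, while the m6A median turned to -0.01, the mRNA decay list had 18 of 36 above 0, the 9 tested fibroblast markers went from a median of 0.09 to 0.01, and the topoisomerase and adduct-repair median went to -0.08. Among single genes MYC went to -0.25, EGR1 to -0.33 and METTL16 to 0.20, while TTLL3 stood at 0.84, CSAD at 0.66 and MIRLET7IHG at 0.71. Fitted on the other 5 libraries of time point 0 alone, a choice made after seeing the data, edgeR called 292 genes (2.13%), 144 higher and 148 lower, with 1 residual degree of freedom between libraries. In pair 2, whose DMSO library that fit did not use, 116 of the 144 (80.6%) stood higher, against 55.9% of all genes with a positive difference. Of the 148, 111 (75%) stood lower, against 57.5%. The called genes had medians of 0.42 (higher) and -0.30 (lower) in that fit, and of 0.20 and -0.16 in pair 2. All pairs leaned the same way by exonic length, so these shares are not a test of single genes. The etoposide library of replicate 2 was in that fit, where the block absorbs it. Among those called there were NEAT1, MEG3, TUG1, POLR2A and CCNT2 (higher) and CCNB1, CDC20, BIRC5, TK1, 18 ribosomal protein genes, FOS, JUN, EGR1, CCN1 and CCN2 (lower). Of these, FOS stood at 0.54 in pair 2, against its call, and NEAT1 at only 0.09. Other early-response and proliferation genes called lower also went against their call in pair 2. They were FOSB (1.08), DUSP1 (0.39), CENPF (0.28), MAFF (0.21) and FOSL1 (0.06). The rest of those calls, KLF6 (-0.16), DUSP5 (-0.16) and MCM6 (-0.02), stood under 0 in pair 2. Several of the ribosomal genes, RPL39 (0.12) among them, also stood above 0 in pair 2. The other genes named by symbol kept their sign there. EIF3CL, the call with the smallest p, stood at -4.29 in that fit and at 0.29 in pair 2. Leaving out both libraries of replicate 2, also chosen after seeing the data, gave 299 calls (2.22%). With no filter on low counts edgeR called 417 genes (1.43%) in all libraries and 7 (0.0249%) without DMSO replicate 2. With 1 residual degree of freedom, the 292 calls lean on the spread that edgeR shares across genes.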

How the data were processed

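RNA was purified with RNeasy and TURBO DNA-free and made into TruSeq Stranded mRNA libraries, per the labels' protocols. Read counts per gene were deposited by the authors as raw whole numbers, and bcl2fastq, HISAT2, featureCounts and GRCh38 are named in the submitters' processing notes; their versions, the annotation and the strand setting were not given in the sources used. Of 58051 gene identifiers 57447 matched GENCODE 29, which gave types, lengths and overlaps. R 4.3.3 and edgeR 4.0.16 were used with TMM factors and filterByExpr on all 18 libraries in 6 groups, which share 1 estimate of spread, with replicate number as a block, quasi-likelihood tests and Benjamini-Hochberg adjustment over 14186 genes. CPM values are TMM-scaled, except those of the cell-type markers and of the 3-count floor, which are scaled to the library's total only. The block was kept because deviations of same-numbered T0 libraries correlated at 0.665, 0.582 and 0.893 across genes; replicates 1 and 2 also correlated across numbers (0.538 and 0.466), so replicate 3 against the rest makes up much of it. limma 3.58.1 (voom) and DESeq2 1.42.0 were alternatives, and 22 planned and 3 added settings were run.

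Genes were named as the first 10 in each direction by unadjusted p, with a mean of at least 5 CPM, plus up to 4 members per list by the same p, and check genes such as TOP2A and EGR1. Members and lists were chosen with earlier results of these data known. Scripts were tested on simulated data. Counts on overlapping genes are uncertain. The labels do not say whether replicates came from separate cultures, beyond calling them independent, so p-values measure the spread between these libraries.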

Additional observations from a re-analysis of the deposited data

How the results depend on the processing

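The count of 0 genes at time 0 stayed at 0 without the replicate block, under size-factor, library-size and housekeeping scaling, a 5 CPM filter, voom and protein-coding genes alone. The 6 libraries alone gave 5 calls with the replicate block and 0 without it, DESeq2 gave 12, and no filter on low counts gave 417, of which 371 were lower and 365 of those highest in DMSO replicate 2. Leaving out libraries gave 0 to 3 calls: 3 without DMSO replicate 1, 2 without DMSO replicate 3, 1 without replicate 1 of both arms and 0 in the other omissions, DMSO replicate 2 included. Settings added after seeing the data gave 292 (5 libraries), 299 (replicate 2 left out of the time 0 libraries) and 7 (no filter, without DMSO replicate 2). Of the list members tested, 0 of 616 were called, then 1 of 612 with 6 libraries (0.163%; all genes 0.0377%), 5 of 672 with no filter (0.744%; 1.43%), and in the added settings 55 of 613 (8.97%; 2.13%), 53 of 611 (8.67%; 2.22%) and 2 of 672 (0.298%; 0.0249%). At 40 the count of 1 became 0 with no replicate block, 4 with DESeq2 and 0 with voom. Of 86 named genes 78 never changed sign in the settings that tested them, 25 for 66 genes and 20 to 24 for the rest. Under housekeeping scaling TOP2A became 0.075, TOP2B 0.090, METTL14 0.029, FOS 0.0084, CDKN1A 0.0043 and MDM2 0.020. TOP2A became 0.0094 without DMSO replicate 3 and 0.011 without replicate 1 of both arms. TOP2B became 0.063 without DMSO replicate 3, 0.0060 without etoposide replicate 2, 0.026 without replicate 3 of both arms and 0.024 without replicate 3 everywhere. TOP1 became -0.0082 without DMSO replicate 2, -0.011 without replicate 2 of both arms, and -0.0099, -0.00043 and -0.0068 in the added settings. FOS became 0.34 without DMSO replicate 1, 0.11 without etoposide replicate 3 and 0.30 without replicate 1 of both arms. Without DMSO replicate 2 and without the block, FOS became 0.028, CDKN1A 0.048 and PMEL 0.030. Over the settings, 442 list medians moved by less than the spread of the pairs and 82 by more. The cause was not tested. Sequencing depth limits genes near the 3-count floor of 0.259 to 0.343 CPM.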

Other observations

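Targets of the YAP and TAZ coactivators, a list chosen after the values of CCN1 and CCN2 were seen, had 24 tested members with a median log2 difference of 0.02 and 15 above 0. CCN1 (-0.45), CCN2 (-0.28) and ANKRD1 (-0.31), a cardiac ankyrin repeat protein, stood lower at an unadjusted p under 0.05, and 1 member stood higher. The lower values of these 3 were thus not shared by most of the list. DUSP1, a MAP kinase phosphatase and early-response gene named after its values were seen, was at 53.8, 41 and 35.2 CPM with DMSO and at 33.2, 53.8 and 25.9 CPM with etoposide, and went from -0.27 to -0.53 without DMSO replicate 2. KRT8, a keratin of simple epithelia, stood at -0.21 and HPRT1, of purine salvage, at -0.31, while HSPB1, a small heat-shock protein, went from -0.22 to -0.08 without that library. The 449 processed pseudogenes had a median of -0.07 with 189 above 0.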
